A study of Vitis vinifera with 2 samples.

Results

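The MLO genes of grape (Vitis vinifera) were taken as every gene whose name in the deposited transcript tables begins with MLO and a number. The rule found 6 genes, MLO5, MLO6, MLO7, MLO9, MLO11 and MLO15, with 7 transcript models, among 30485 genes and 53908 transcript models. It used names alone and no measured value, though members and rules were chosen with earlier results of these data known. Of these 6 genes, 4 reached 1 FPKM (fragments per 1 kilobase of RNA model, corrected for library size) in either library. MLO6 was higher after the yeast, MLO5 was lower by less than 2-fold, MLO15 and MLO11 stood close to equal, and MLO7 and MLO9 were near the limit of what these libraries could measure.

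MLO proteins are plant membrane proteins that cross the plasma membrane several times and carry a calmodulin-binding stretch in their cytosolic tail. The family is named after the barley gene whose loss makes plants resistant to powdery mildew, and some of its members in grapevine are likewise known to help the powdery mildew fungus enter the cell. Other members act in pollen tube reception and root growth in Arabidopsis, and proteins of the family have been described there as calcium channels. Yarrowia lipolytica, the organism applied here, is a yeast studied as an antagonist of moulds on harvested fruit and is no powdery mildew.

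The data are 2 RNA libraries of wounded grape tissue kept at 20 °C and collected 3 days after the wound had been given 10 µL of liquid. One library is the control, given sterile water, and the other was given a suspension of Y. lipolytica. As the strain label gives the yeast even for the water library, the groups follow the titles and the treatment description. The sources used here give no cultivar, number of fruits or pooling, and of the 2 tissue types in the series text the labels give wound tissue alone. There is 1 library per group (n = 1) and hence no test, and every interval below is a 95% interval that covers counting error only and none of the variation between fruits.

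The control library held 19010746 fragment equivalents (aligned bases divided by 300, as for a pair of reads), and the library with yeast 20540965. Genes named after ripening in grape were abundant in both, with GRIP4 at 9967 and 8709 FPKM and GRIP22 at 794 and 439.5 FPKM. UFGT, also listed as a berry and ripening gene, was low at 1.94 and 1.17 FPKM. Of the photosynthesis genes, psbA stood at 6.76 and 4.11 FPKM and rbcL at 3.72 and 2.49 FPKM. The photosystem gene PSBP1 stood at 1.07 and 0.988 FPKM. These values are sums over all models of a name, 3 for GRIP4 and rbcL and 2 for GRIP22, psbA and PSBP1. Such models can lie at different places, and copies were not told apart. Of 6 listed berry and ripening genes and 3 of photosynthesis, none was past 2-fold. Among all measured genes 6.26% were at least 2-fold higher and 3.66% at least 2-fold lower, so a count over so few genes says little. In bulk tissue, fewer cells of a type and less RNA per cell cannot be told apart. The log2 ratio used below is log2((treated FPKM + 1)/(control FPKM + 1)), and its median over all 16040 measured genes was -0.28, a shift to keep in view for every gene close to equal.

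The MLO genes lie at 5 places in the genome as the files give it, whose build the sources used here do not name. MLO7 (5335059 to 5339258) and MLO6 (5356780 to 5360844) are neighbours on the plus strand of chromosome 13, 17521 bases apart with no gene model between them. MLO9 spans 3714120 to 3725337 on the plus strand of chromosome 12. MLO11 (chromosome 8, 13284166 to 13288426) and MLO15 (chromosome 5, 24844260 to 24849800) are on the minus strand. MLO5 (120345 to 128258, minus strand) is on a scaffold without a chromosome number, and all 12 genes of that scaffold that could be matched lie on chromosome 7 in a RefSeq table of another assembly.

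The 6 genes have similar structures. Their models have 14 or 15 exons and 1673 to 2115 bases of transcript, whereas the median measured gene has 5 exons and 9.86% of measured genes have 14 or more. MLO5, MLO6, MLO7, MLO11 and MLO15 have 1 model each, so their gene values are also their transcript values. No gene model overlaps any of the 6 genes, so their fragments did not have to be divided with a gene at the same place. How alike the MLO transcripts are to each other in sequence was not analysed here.

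MLO names are not used in 1 way for grape. In the RefSeq table the gene called MLO6 here also has the name MLO13, MLO5 has the name MLO1, MLO7 has MLO17, MLO11 has MLO3 and MLO15 has MLO7. A further gene, LOC100267554, has both MLO3 and MLO6 among its synonyms. The values below belong to the symbols in the files, and roles published under an MLO number can belong to another of these genes, so no role is given to a single member.

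MLO6 had 5.83 FPKM with water and 30.9 FPKM with yeast. These values rest on 204 and 1158 fragment equivalents and a mean coverage of 34.5 and 196 reads per base. The treated level was 5.30-fold the control level (4.56 to 6.18), with a log2 ratio of 2.22, or 2.50 above the median of all genes. Only 232 of the 16040 measured genes had a larger ratio. By level MLO6 stood at percentile 38.2 of measured genes with water and at percentile 77.7 with yeast.

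MLO5 had 22.0 FPKM with water and 12.04 FPKM with yeast, from 724 and 426 fragment equivalents. The treated level was 0.548 times the control level (0.485 to 0.618). This interval reaches past 2-fold at its lower end, while the log2 ratio of -0.82 stayed within 2-fold. Relative to the median of all genes the log2 ratio was -0.54, and 1250 measured genes had a lower one. By level MLO5 stood at percentile 69.6 with water and 58.7 with yeast.

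MLO15 had nearly the same level in both libraries, at 26.6 and 24.6 FPKM from 1020 and 1010 fragment equivalents. Its ratio was 0.923, and the counting interval of 0.845 to 1.01 holds equality. The log2 ratio of -0.11 turned to 0.20 when the treated library was rescaled so that the median ratio of all genes was 0. MLO15 stood at percentiles 73.8 and 73.5 of measured genes.

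MLO11 was just above the 1 FPKM minimum, at 1.01 and 1.04 FPKM from 41.9 and 46.7 fragment equivalents. Its ratio of 1.04 has a counting interval of 0.669 to 1.61, so a difference inside that interval was not detectable at this depth. By level it was among the lowest measured genes, at percentiles 3.56 and 8.37.

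MLO9 and MLO7 did not reach 1 FPKM in either library. MLO9 was listed at 0.437 FPKM with water and 0.0489 FPKM with yeast, from 16.6 and 2.00 fragment equivalents. The treated value was 0.112 times the control (0.0126 to 0.472), so the interval leaves out equality although the treated level lies under the 0.0734 FPKM that 3 fragments would give. Both values belong to the MLO9 model with 14 exons and 1935 bases. The other MLO9 model, with 15 exons and a span of 11128 bases, was listed at 0 in both libraries. MLO7 was listed at 0.141 and 0.107 FPKM from 4.85 and 3.95 fragment equivalents, and its ratio of 0.759 has an interval of 0.151 to 3.53, so no difference was detectable.

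**Figure D1:**
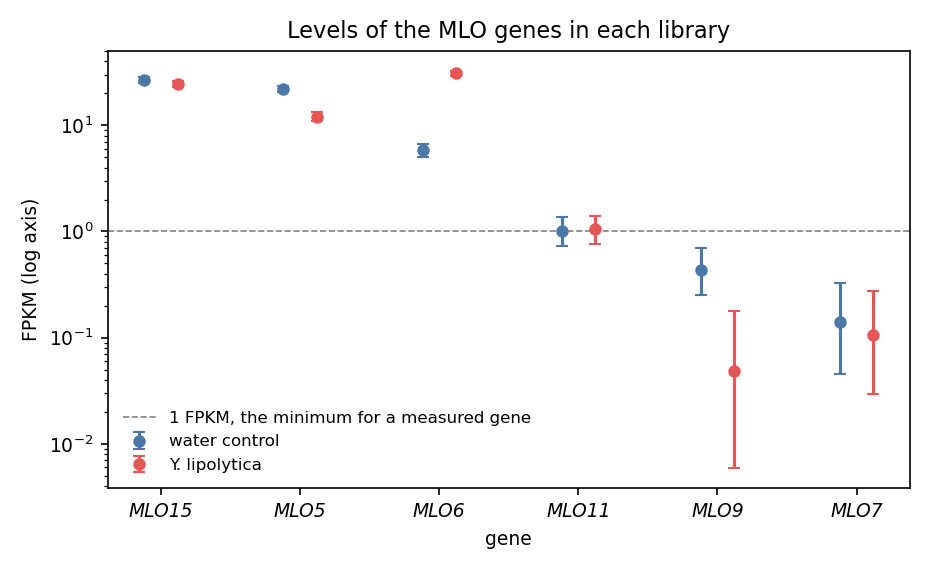
FPKM of the 6 MLO genes (log axis) in the water control and in the Y. lipolytica library, 1 library each, ordered by the control level. Points are the library values and bars exact Poisson 95% counting intervals; MLO6 stands at 5.83 and 30.9 FPKM, while the values of MLO15, MLO11 and MLO7 lie close together.

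Among the 4 measured MLO genes, 1 was at least 2-fold higher (MLO6) and none was at least 2-fold lower. Among all measured genes, 6.26% were at least 2-fold higher and 3.66% at least 2-fold lower. The median log2 ratio of the 4 measured MLO genes was -0.04, beside -0.28 over all measured genes, and it became 0.20 where the treated library was rescaled to a median of 0 over all genes.

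**Figure D2:**
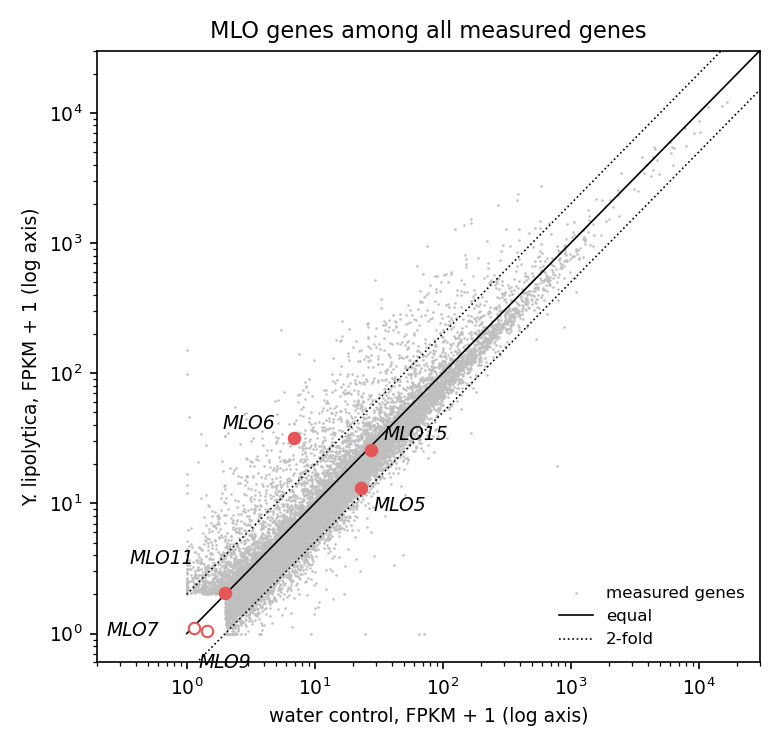
Treated against control level of all 16040 measured genes (grey) and of the 6 MLO genes (red, open where under 1 FPKM in both libraries), as FPKM + 1 on log axes. The solid line marks equal values and the dotted lines 2-fold; MLO6 lies above the upper dotted line, and MLO5 lies inside the lower one.

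The order of the MLO levels, which FPKM allows because it is per length, differed between the libraries. In the control MLO15 was highest, followed by MLO5, MLO6, MLO11, MLO9 and MLO7. Each step in that order exceeded counting error, the smallest being MLO15 over MLO5 at 1.21-fold (1.10 to 1.33). Counting error leaves out the choice of gene length. The deposited gene values, which imply other lengths, have MLO5 above MLO15 in both libraries. In the treated library MLO6 was highest, 1.26-fold above MLO15 (1.15 to 1.37), and MLO15 in turn was 2.04-fold above MLO5 (1.82 to 2.29). MLO11 followed, and the order of the last pair, MLO7 over MLO9, was within counting error at 2.19-fold (0.314 to 24.2).

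Summed over the 6 genes, the MLO level was 56.1 FPKM with water and 68.8 FPKM with yeast, a ratio of 1.23. Sums and shares rest on the transcript lengths and would differ with other lengths. Without MLO6 the sums were 50.2 and 37.8 FPKM, a ratio of 0.753. MLO6 made up 10.4% of the sum with water and 45.0% with yeast. The share of MLO5 was 39.2% with water and 17.5% with yeast, and that of MLO15 47.5% and 35.8%. MLO11, MLO9 and MLO7 each made up less than MLO6, MLO5 or MLO15 in both libraries, with MLO11 the highest of them at 1.80% and 1.52%.

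**Figure D3:**
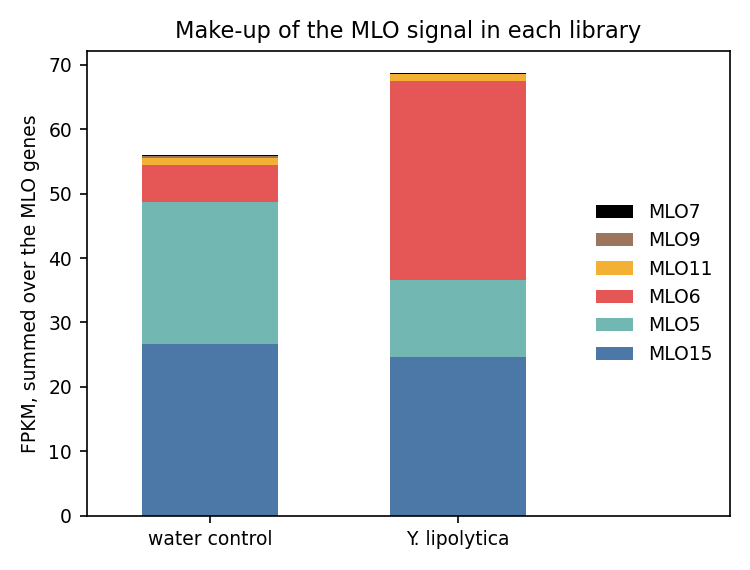
FPKM of the 6 MLO genes stacked for each library (1 water control, 1 Y. lipolytica). The sums are 56.1 and 68.8 FPKM, and the MLO6 part (red) is 10.4% of the first and 45.0% of the second.

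Comparing MLO genes with each other inside a library removes the scaling between the libraries. The level of MLO6 was 0.219 times that of MLO15 with water and 1.26 times with yeast, a 5.74-fold difference (4.82 to 6.86). Against MLO11 the corresponding difference was 5.11-fold (3.20 to 8.15). Against MLO5, which was lower after the yeast, it was 9.68-fold (7.97 to 11.8). MLO6 and its neighbour MLO7 differed by 6.98-fold (1.49 to 35.5), a wide interval because MLO7 had so few fragments.

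MLO5 was lower after the yeast also relative to MLO15 and MLO11. The level of MLO5 was 0.825 times that of MLO15 with water and 0.490 times with yeast, a difference of 0.593 times (0.510 to 0.690). Relative to MLO11 it was 0.528 times (0.334 to 0.834). Against MLO9, which had 2.00 fragment equivalents with yeast, the direction was opposite: MLO5 was 50.4 times MLO9 with water and 246 times with yeast, a 4.89-fold difference (1.15 to 43.8). Of all 15 pairs of MLO genes, 10 had an interval of this kind that leaves out 1, with no adjustment for the number of pairs. The other 5 were MLO11 with MLO15 and the pairs of MLO7 with MLO5, MLO9, MLO11 and MLO15.

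The nearest measured genes around MLO6 did not share its higher value. On the lower side, beyond MLO7, LOC100242744 had 4.31 and 2.03 FPKM, a ratio of 0.470 (0.333 to 0.658). On the higher side LOC100253010, 9129 bases away, stood at 23.6 and 18.0 FPKM, 0.762 times (0.669 to 0.868). The gene between MLO6 and LOC100253010, LOC100247887, was under 1 FPKM with 3.00 and 0.997 fragment equivalents. Most genes were likewise not higher, as 73.5% of all measured genes had a log2 ratio below 0 and 6.26% were at least 2-fold higher.

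MLO5 lies 918 bases from LOC100265491 on the same strand, which had 3.73 and 1.97 FPKM, a ratio of 0.527 (0.397 to 0.696), close to the ratio of MLO5 itself. On its other side LOC100248340, 18229 bases away, stood at 145 and 115 FPKM, 0.791 times (0.746 to 0.839). MLO15 begins 376 bases from LOC109122651, which is read in the opposite direction. That gene stood at 1.93 and 3.41 FPKM, 1.76-fold (1.05 to 3.02). The gene past the end of MLO15, LOC100259542, stood at 13.5 and 9.41 FPKM, 0.696 times (0.609 to 0.794), so the neighbours of MLO15 had ratios on either side of 1.

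MLO11 is flanked by LOC100263731, at 130 and 153 FPKM, and, as the next measured gene on the other side, LOC100854914, at 4.66 and 1.77 FPKM with a ratio of 0.380 (0.260 to 0.546). The measured genes around MLO9 had ratios above 1, LOC100262549 with 1.14 (1.08 to 1.19) and LOC100247528 with 1.27 (1.17 to 1.38), while MLO9 was listed lower. Gene names on both sides of MLO6, MLO7, MLO9 and MLO15 are the same in the RefSeq table of the other assembly. For MLO5 and MLO11 they are the same on 1 side.

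**Figure D4:**
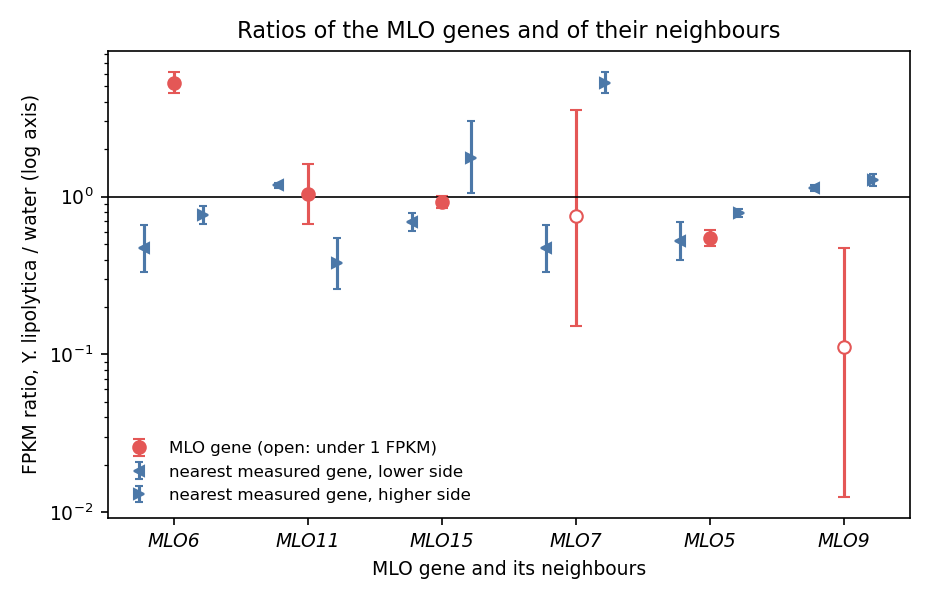
Ratio of treated to control FPKM (log axis) for each MLO gene (red, open where under 1 FPKM in both libraries) and for the nearest measured gene on its lower and higher side (blue triangles), 1 library per group. Bars are exact binomial 95% counting intervals and the line marks equal values; MLO6 stands at 5.30 with neighbours at 0.470 and 0.762, and MLO6 is itself the higher-side neighbour of MLO7.

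The genes most like each measured MLO gene were sought among the 328 other measured genes with a symbol, by the distance in log2(FPKM + 1) over the 2 libraries. Closest to MLO5 were ZFPL (20.6 and 12.04 FPKM), the protein kinase gene CIPK17 (19.5 and 13.3 FPKM) and P5CS (23.4 and 14.1 FPKM), an enzyme of proline synthesis, at distances of 0.09 to 0.23. MLO15 was closest to MYBCS1 (29.6 and 22.8 FPKM), CIPK09 (30.7 and 25.0 FPKM) and CIPK04 (31.0 and 26.4 FPKM), at 0.18 to 0.23. Nearest to MLO11 were PSBP1, orf102 and rps4, all near 1 FPKM, at 0.06 to 0.13. MLO6 had no close match among these 328 genes, and measured genes without a symbol were not compared. The nearest gene to it, the ABC transporter gene ABCC1, stood at 12.3 and 26.04 FPKM at a distance of 0.99, followed by CIPK19 (5.07 and 12.5 FPKM) at 1.25 and HT7 (8.47 and 12.8 FPKM), a hexose transporter gene, at 1.30. With 2 libraries, likeness says only that a gene has similar levels in both.

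LOC100267554, the gene outside the name rule whose synonyms are MLO3 and MLO6, stood at 12.3 and 11.4 FPKM. Its ratio of 0.929 (0.815 to 1.06) holds equality, and its log2 ratio of -0.10 was 0.20 once the treated library was rescaled to a median ratio of 0. With 14 exons and 1930 bases it is like the MLO genes in exon count and transcript length. Its place in the family rests on the synonyms alone and was not tested. Other MLO genes that carry neither an MLO name nor such a synonym may be in the files and were not analysed here.

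Few genes on lists drawn up around MLO function were found by symbol or synonym in these files. A place on such a list does not show that a gene works with MLO proteins. Of the lists for vesicle secretion at the cell wall, calmodulin, salicylate signalling, NADPH oxidases with Rac proteins, callose synthases and the BAX inhibitor, a gene was found for the salicylate and callose lists alone. EDS1, a regulator of salicylate-dependent immunity, stood at 4.25 and 5.52 FPKM, a ratio of 1.30 (1.08 to 1.57). The log2 ratio of EDS1 was 0.31, and 0.59 once the treated library was rescaled to a median ratio of 0. CALS10, a gene of the callose synthase family, stood at 16.9 and 15.5 FPKM, a ratio of 0.915 (0.860 to 0.974), and its log2 ratio of -0.12 was 0.18 once the treated library was rescaled to a median ratio of 0. Neither was past 2-fold.

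The authors' deposited gene table gives the same ratios for the MLO genes on another scale of levels. MLO6 has 6.78 and 35.9 there, a ratio of 5.30, and MLO5 has 46.6 and 25.5, a ratio of 0.548. The table places MLO5 above MLO15, at 17.6 and 16.3, in both libraries, the reverse of the transcript FPKM. Aligned bases divided by the deposited value give a length of 789 bases for MLO5, whose transcript has 1673, and 2941 bases for MLO15, whose transcript has 1944. For MLO7 this length is 6199 bases against a transcript of 1746. Levels of different MLO genes were therefore taken from the transcript tables.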

How the data were processed

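RNA was sequenced from wounded grape tissue, 1 library with water and 1 with Y. lipolytica. The submitters' processing notes name HISAT2 and HTSeq 0.6.1 and give no roles. Build and annotation are not given in the sources used here. Per the file headers, the deposited transcript tables hold FPKM and coverage. Coverage was taken as a signal per base that is not scaled to depth. The deposited gene table is named FPKM but was treated as a score, since its length divisor is not the transcript length.

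FPKM was summed per gene name. A gene was measured at 1 FPKM in either library, and ratios used a pseudocount of 1, except the plain ratios with intervals. Aligned bases (coverage times length) were divided by 300 to give fragment equivalents, which takes each fragment as a pair of reads of 150 bases. Of 4172 and 4287 transcripts with 100 to 1000 aligned bases, 26.9% and 26.0% lay within 0.5 bases of a multiple of 150. An even spread would give 0.667%. These shares bear on the read length alone. That reads come in pairs was not tested, and fragment equivalents and interval widths rest on it. Intervals are exact binomial for ratios, exact Poisson for levels and exact conditional for pairs of genes, on rounded fragment equivalents. They were computed with Python 3.11.15 and SciPy 1.17.1. Only the binomial intervals were tried on simulated counts, which were drawn from the counting model that these intervals assume. The genes used there had more control fragment equivalents than MLO11, MLO9 and MLO7. All these intervals cover counting error only, and none of the variation between fruits. PCR copies are not independent molecules, so the intervals can be too narrow even for counting error.

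Chromosome numbers are those of 99.4% or more of the genes matched by symbol in the RefSeq table. The members, lists and rules were chosen with earlier results of these data known. All members are named, with the nearest measured genes, the 3 most similar genes with a symbol and the listed genes. A planned protein search for further family members could not be run here. Alternatives were other pseudocounts, filters, scalings and the deposited gene table.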

Additional observations from a re-analysis of the deposited data

How the results depend on the processing

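No paired analysis was possible because the water and yeast groups hold 1 library each, which also leaves no replicate to omit. MLO6 was at least 2-fold higher and no measured MLO gene at least 2-fold lower under each planned setting. Log2 ratios of MLO6 ranged from 1.73 to 2.54 over all settings and those of MLO5 from -0.86 to -0.52. Rescaling the treated library to a median ratio of 0 gave -0.52 for MLO5, 2.54 for MLO6 and 0.20 for MLO15. It moved the median of all genes from -0.28 to 0.00, with 8.60% of genes at least 2-fold higher and 1.80% lower. A pseudocount of 5 gave 1.73 for MLO6 and -0.11 for MLO9. FPKM rescaled to the same sum in both libraries gave -0.56 for MLO9. A pseudocount of 0.1 gave -0.22 for MLO7 and -1.85 for MLO9, which are -0.04 and -0.45 with a pseudocount of 1. These moves follow from the construction of each setting. With a pseudocount of 0.1 and no filter on low values, a setting chosen after seeing the data, the count of MLO genes at least 2-fold lower was 1 (MLO9) instead of 0, and 8.64% of all genes were lower. At this pseudocount lower genes outnumbered higher ones also among measured genes, at 9.60% against 7.80%, and at a pseudocount of 5 they were 0.723% against 3.88%. The planned protein search for further family members was not run. Depth limits MLO7 and MLO9, which rest on 16.6 fragments or fewer in each library, and the single library per group limits every comparison.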
